A study of Mus musculus with 6 samples.

Results

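Cytosolic ribosomal protein genes were described in invariant natural killer T (iNKT) cells, T cells with a semi-invariant receptor for lipids on CD1d, from 3 mouse organs. Members were chosen by symbol alone, as genes named Rps or Rpl with a number, Rplp with a number, or Rpsa, without the Rps6k kinases, Rps19bp1 and symbols containing -ps. The rule found 86 of the 27998 genes in the count matrices. Of these, 31 encode proteins of the small subunit, 43 encode proteins of the large subunit, 3 encode the P stalk and 9 are further copies of such genes. Among the copies, Rpl6l is annotated as a processed pseudogene in GENCODE. The cells came from wild-type (WT) C57BL/6 mice aged 5 weeks, with 2 libraries each from liver, spleen and lymph node and no treatment. Cells positive for CD8 or B220 were depleted, and cells that bound a TCRβ antibody and a CD1d tetramer were sorted. Transcripts were counted from their 3′ ends as unique molecular identifiers (UMIs), so that 1 UMI stands for 1 captured transcript of any length. The study itself set structural ribosomal proteins aside before it clustered its cells, while the deposited matrices hold them.

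The cytosolic ribosome joins a small subunit, which reads the mRNA, to a large subunit, which forms the peptide bond, and the P stalk of the large subunit recruits the elongation factors. Its proteins are made in near equal numbers, and their mRNAs belong to the 5′ terminal oligopyrimidine (TOP) class, which starts with a C followed by a run of pyrimidines and is translated under control of the kinase complex mTORC1 and the RNA-binding protein Larp1. In T cells, ribosome production is known to rise when resting cells are activated and grow.

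The TOP class is defined at the transcription start, so the starts of 8 members are printed first. They are the 4 members with the largest fold of liver over lymph node and 4 that went the other way or lagged behind, chosen after their values were seen. Each line runs 5′ to 3′ from 40 bases before to 20 bases from the RefSeq start on build GRCm38.p6, with the longest unbroken run of C and T in capitals, the first where runs were equally long.
Rps12, chr10:23787190-23787249, minus strand: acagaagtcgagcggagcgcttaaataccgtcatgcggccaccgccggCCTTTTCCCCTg
Rpl12, chr2:32961672-32961731, plus strand: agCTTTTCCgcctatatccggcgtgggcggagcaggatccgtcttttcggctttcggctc
Rps10, chr17:27635225-27635284, minus strand: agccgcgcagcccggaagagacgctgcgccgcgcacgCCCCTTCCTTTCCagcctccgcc
Rpl5, chr5:107900488-107900547, plus strand: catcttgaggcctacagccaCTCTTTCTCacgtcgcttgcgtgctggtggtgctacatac
Rpl35, chr2:39005112-39005171, minus strand: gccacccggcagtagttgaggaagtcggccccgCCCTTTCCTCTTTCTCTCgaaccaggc
Rpl22l1, chr3:28805468-28805527, plus strand: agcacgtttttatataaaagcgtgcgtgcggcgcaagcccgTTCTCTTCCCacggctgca
Rps27, chr3:90213629-90213688, minus strand: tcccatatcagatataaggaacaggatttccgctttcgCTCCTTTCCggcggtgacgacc
Rps28, chr17:33824543-33824602, minus strand: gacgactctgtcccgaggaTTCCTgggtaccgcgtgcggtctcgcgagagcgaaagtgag
Base 41 of each line is the annotated start, numbered 1, with bases before it numbered from -1 downwards. The run spanned the start in Rps10, from base -3 to base 10, in Rpl35, from base -7 to base 11, and in Rps27, from base -2 to base 7. It lay just after the start in Rpl22l1, from base 2 to base 11, and in Rps12, from base 9 to base 19. In Rpl5 and Rps28 the longest run lay before the RefSeq start, and in Rps28 it was 5 bases long. Starts differ between annotations, and the GENCODE gene model of Rpl5 begins at base 107900502 of chromosome 5, upstream of its run. Rpl12 had equally long runs before and just after the start. A run across or just after the start was thus seen among members higher in liver and among members lower in liver.

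RefSeq held promoter windows of 300 bases, 250 of them before the start, for 65 of the 86 members. Of these 65, 14 (21.5%) started with a C followed by 4 pyrimidines on the gene strand, against 3.01% of 27025 genes with a window. These counts hold for the RefSeq starts, which other annotations can place elsewhere. A run of 8 or more pyrimidines within 25 bases of the start was in 33 members (50.8%) and in 22.2% of all genes. The letters CTTTCC, which can overlap such a run, were within 25 bases of the start on the gene strand in 12 members (18.5%) and 2.92% of all genes. CCGGAAG, an ETS-type motif, was on either strand of the window in 26 members (40%) and 9.93% of all genes.

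The 6 libraries held 16587 barcodes, of which 16532 lay within the limits on genes and mitochondrial UMIs given in the methods of the study, 2638 to 2861 in each library. The study states a smaller number of cells kept, so the cells used here are not exactly those it analysed. The median cell held 3592 and 2880 UMIs in liver libraries, 1724 and 1554 in those of spleen and 1730.5 and 1470 in those of lymph node. Pairs of libraries shared 6 to 20 barcodes. The liver and spleen libraries held 5401 to 10404 Xist UMIs and 0 UMIs of 5 Y-linked genes, and the lymph node libraries held 0 Xist UMIs and 1365 and 1582 Y-linked UMIs, so organ and sex cannot be told apart in comparisons with lymph node. The 5 iNKT identity genes found of 8 listed were detected in every library. Alb, a hepatocyte marker, and Cd8a were at or near 0, with at most 3.04 CPM (UMIs per 1000000 UMIs of the library). The 6 erythroid genes summed to 362 and 583 CPM in liver, mostly haemoglobin, and to at most 0.210 CPM elsewhere. Summed levels were at most 11.8 CPM for B cell, 2.93 CPM for hepatocyte and 4.60 CPM for CD8 T cell genes. Endothelial genes summed to 16.3 to 38.5 CPM, nearly all Pecam1, and myeloid genes to 129 to 274 CPM, mostly Cst3, with Lyz2 at 82.4 CPM in lymph node replicate 2 and at most 12.1 CPM elsewhere.

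Ribosomal protein transcripts took a larger share of the UMIs of liver iNKT cells than of spleen or lymph node iNKT cells. The 86 genes held 34.0% and 31.6% of all UMIs in the liver libraries, against 28.0% and 27.4% for spleen. The lymph node libraries were lowest, with 26.7% and 22.9%. The organ means (± SD, n = 2 each) were 32.8% ± 1.67 for liver, 27.7% ± 0.458 for spleen and 24.8% ± 2.71 for lymph node. Both liver libraries lay above all others, the 2 spleen libraries lay above both lymph node libraries, and the gap between the 2 lymph node libraries exceeded the gap between spleen and the higher of them. The total over the members was given no test, since they were chosen with earlier results of these data known. Mitochondrial transcripts had their lowest share in liver, with 2.79% and 2.85% of UMIs in liver libraries, 4.27% and 4.87% in those of spleen and 4.65% and 5.26% in those of lymph node. Malat1 was at 2.58% and 2.44% in liver libraries, 2.56% and 2.75% in those of spleen and 3.25% and 3.15% in those of lymph node. With mitochondrial genes, Malat1, Gm42418 and AY036118 left out of the total, the shares were 34.6% in liver and 29.9% in spleen, so the order of these organs stayed. Whether the mitochondrial share, the depth or the haemoglobin RNA has a part in the difference was not tested.

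**Figure D1:**
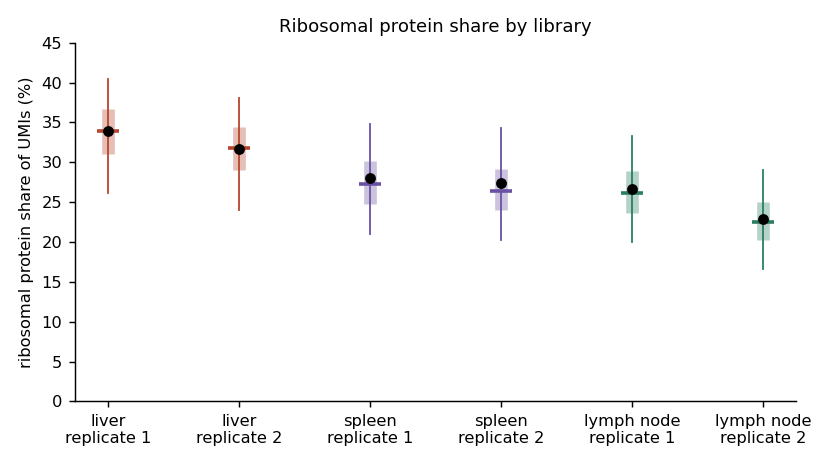
Ribosomal protein share of UMIs (%, vertical axis) in each of the 6 libraries (horizontal axis). The black point is the share of the summed UMIs, the short line the median over cells, the wide bar the quartiles over cells and the thin line the 5th to 95th percentile. The liver points lie at 34.0% and 31.6% and the other 4 between 22.9% and 28.0%, while the ranges over cells overlap.

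All 3 parts of the ribosome had their highest share in liver. Small subunit genes held 14.7% and 13.7% of UMIs in liver libraries, 12.0% and 11.7% in those of spleen and 11.6% and 9.86% in those of lymph node. Large subunit genes held 17.3% and 16.05% in liver libraries, 14.4% and 14.0% in those of spleen and 13.5% and 11.5% in those of lymph node. The P stalk genes Rplp0, Rplp1 and Rplp2 held 1.55% and 1.36% in liver libraries, 1.00% and 0.915% in those of spleen and 0.965% and 0.791% in those of lymph node. Large over small subunit UMIs were 1.18 and 1.18 in liver libraries, 1.20 and 1.20 in those of spleen and 1.16 and 1.17 in those of lymph node.

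Single cells spread far around their library. The median cell had 33.9% and 31.8% in liver libraries, 27.3% and 26.4% in those of spleen and 26.2% and 22.5% in those of lymph node. The SD over cells was 3.75 to 4.47 percentage points, where the counting of a fixed share alone would give 0.838 to 1.13 percentage points. A median liver cell held 1211 and 906 ribosomal protein UMIs, a median spleen cell 471 and 414, and a median lymph node cell 453 and 333. UMIs of all other genes were at a median of 2376 and 1955 per liver cell, 1248 and 1140 per spleen cell and 1269 and 1139 per lymph node cell.

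Since liver cells held more UMIs, the share was set against UMIs per cell, in classes that include their lower and not their upper limit. In cells with 2000 to 3000 UMIs, the median share was 31.7% (517 cells) and 31.1% (1081 cells) in liver libraries, 29.2% (599 cells) and 28.9% (461 cells) in those of spleen and 27.4% (694 cells) and 23.8% (442 cells) in those of lymph node. The organs kept their order at this depth, with a smaller gap between liver and spleen than over all cells. In cells with 1000 to 1500 UMIs the medians were 33.8% and 31.1% in liver libraries, 25.5% and 25.2% in those of spleen and 25.2% and 22.3% in those of lymph node. Here both liver libraries stood well above the rest, and spleen and the first lymph node library lay within 0.5 percentage points.

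Within spleen and lymph node libraries the median share rose with UMIs per cell up to 3000 to 4000 UMIs, where it was 30.1% and 30.3% in spleen libraries and 29.0% and 24.4% in those of lymph node. It was lower again from 6000 UMIs on, at 24.8% and 25.8% in spleen libraries and 24.7% and 20.6% in those of lymph node, each from 22 to 39 cells. Cells with cycling markers, a class defined further on, made up 64.7% and 84.6% of these spleen cells and 60% and 77.3% of these lymph node cells, which left 5 to 12 others per library. Without them the median at 4000 to 6000 UMIs was above that at 3000 to 4000 UMIs in spleen replicate 1 (31.1% against 30.3%) and lymph node replicate 2 (25.8% against 24.6%) and below it in spleen replicate 2 (30.5% against 31.5%) and lymph node replicate 1 (28.7% against 29.5%). The lower medians of the deepest cells thus came with many cycling cells and cannot be read as a trend with depth alone. The liver libraries had their lowest median among cells with fewer than 4000 UMIs at 2000 to 3000 UMIs (31.7%) in replicate 1 and at 1500 to 2000 UMIs (30.3%) in replicate 2. Their highest was 35.9% at 4000 to 6000 UMIs and 33.1% at 3000 to 4000 UMIs. Cells with cycling markers made up 27.9% and 45.2% of the liver cells with 6000 or more UMIs, against 4.03% and 4.79% of all liver cells. Without them, the median at 6000 or more UMIs was 35.9% and 33.3%, compared with 34.4% and 30.5% with them.

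**Figure D2:**
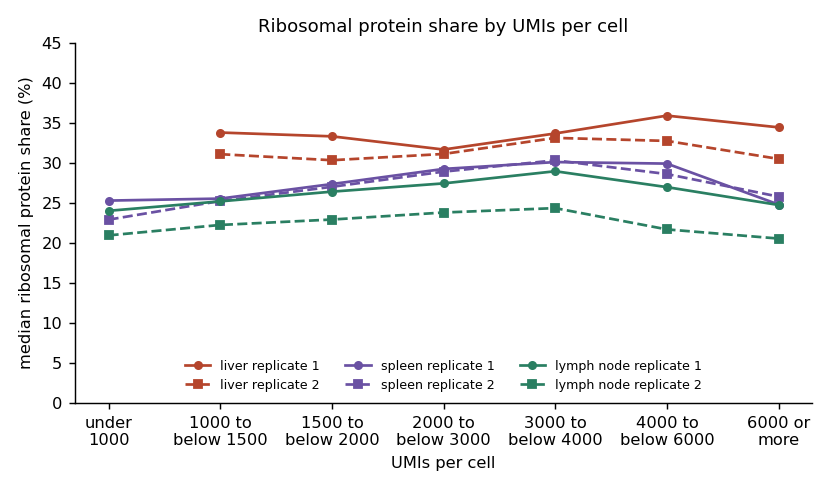
Median ribosomal protein share over cells (%, vertical axis) in classes of UMIs per cell (horizontal axis), with 1 line per library, solid for replicate 1 and dashed for replicate 2. Classes with fewer than 20 cells are not drawn. Both liver lines lie above the spleen and lymph node lines in every class drawn for liver, and spleen and lymph node lines rise to 3000 to 4000 UMIs and are lower beyond, where 18.6% to 84.6% of their cells had cycling markers.

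The share also differed between kinds of iNKT cells. Each cell with at least 1000 UMIs was thinned to 1000 UMIs, and a cell counted as having the markers of a class when at least 2 UMIs of its list remained. UMIs of the class lists were left out of the total. At a fixed 1000 UMIs, a cell with a larger ribosomal protein share has fewer UMIs left for markers. The part of this in the differences below was not tested. The classes are ranges along a marker count and not cell types. Of the cells called, 12.4% (iNKT1) to 67.7% (recent thymic emigrants, RTE) sat at exactly 2 UMIs, so the values with at least 3 UMIs are given where a direction changed.

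Cycling cells, marked by genes such as Mki67 and Top2a, had the lowest share relative to the other cells of their library. It was 29.0% against 34.3% and 26.1% against 32.1% in liver, 23.9% against 28.0% and 24.2% against 27.4% in spleen, and 22.8% against 26.8% and 19.1% against 23.2% in lymph node. The difference was -4.46 ± 1.03 percentage points (SD, n = 6 libraries) and was negative in 6 of 6. Cells with cycling markers had 3971 to 7421 UMIs at the median before thinning, and the other cells had 1575 to 3553.

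Cells with markers of iNKT1 cells, the subset that makes interferon-γ and bears natural killer receptors, had a lower share than the rest in 6 of 6 libraries. The difference was -1.20 and -1.03 percentage points in liver libraries, -3.04 and -3.38 in those of spleen and -0.989 and -1.03 in those of lymph node. The spleen values did not overlap those of the other organs, and this difference between organs was not tested. Within cells with iNKT1 markers the share was 33.9% and 31.7% in liver libraries, 27.4% and 26.6% in those of spleen and 26.0% and 22.3% in those of lymph node, so the order of the organs was the same within this range of cells. Cells with iNKT1 markers had fewer UMIs than the others in each library, for example 1667 against 2525 at the median in spleen replicate 1.

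Cells with iNKT17 markers (Il23r and others) had a lower share than the others in spleen (-2.17 and -1.27 percentage points, 67 cells in all) and lymph node (-1.53 and -1.14, 1104 cells). In liver the values were -0.211 and 0.179 percentage points, and with at least 3 UMIs they were 0.240 and -0.865. Cells with iNKT2 markers (Gata3, Il4 and others) differed by -0.0187 to 0.508 percentage points, and by -0.111 to 1.40 with at least 3 UMIs. Cells with interferon-induced Ifit markers were lower in 6 of 6 libraries, by -0.160 to -0.987 percentage points, but in 5 of 6 with at least 3 UMIs, where spleen replicate 2 was at 0.196. Cells with NF-kB markers were lower in 5 of 6, from -1.40 to 0.435 percentage points.

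Cells with RTE markers, among them the homing genes Ccr7 and S1pr1 and their regulator Klf2, differed in direction between organs at this limit. The share was 33.6% against 34.1% and 31.6% against 31.8% in liver. It was 28.6% against 27.9% and 28.8% against 27.1% in spleen, and 29.3% against 26.6% and 24.0% against 23.0% in lymph node. The marked cells were lower in both liver libraries and higher in all 4 others, and this difference between organs was not tested. It depended on the limit in liver: with at least 3 UMIs the differences were 0.0636 (27 cells) and -0.891 (24 cells) percentage points in liver libraries, 0.0162 and 2.18 in those of spleen and 4.89 and 3.06 in those of lymph node.

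**Figure D3:**
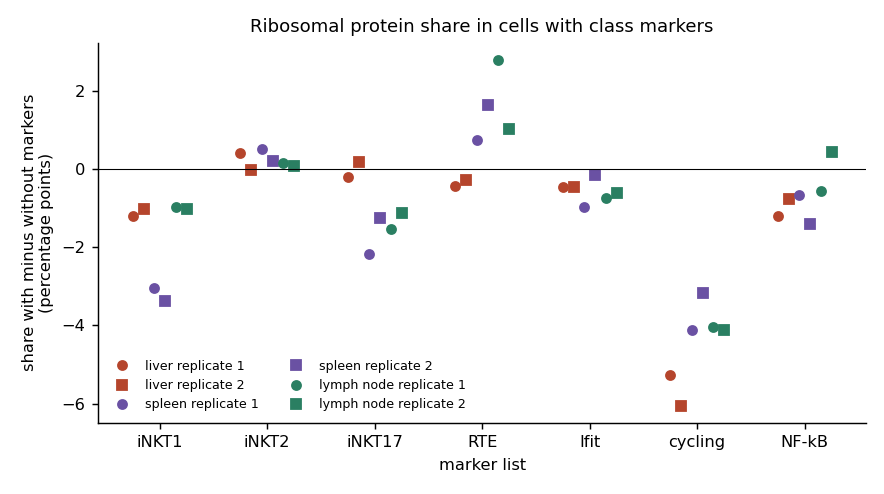
Difference in ribosomal protein share (percentage points, vertical axis) between cells with and without the markers of each list (horizontal axis), after thinning to 1000 UMIs. Each point is 1 library, coloured by organ, with circles for replicate 1 and squares for replicate 2. Cycling and iNKT1 points are all below 0, and RTE points are below 0 in liver and above 0 in spleen and lymph node, where liver replicate 1 turns to 0.0636 with at least 3 UMIs.

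Single genes were tested with edgeR's quasi-likelihood test on UMIs summed per library, over all 10314 genes that passed the filter, with Benjamini-Hochberg adjustment. A fold is a log2 difference on the TMM scale, and a gene was called at an adjusted p below 0.05. The filter passed 84 members. Rpl10l had 0 UMIs in every library, which allows up to 3 per library, and Rpl3l had 2 UMIs in liver replicate 2, 1 in lymph node replicate 2 and 0 elsewhere. Levels are given in CPM, which for 3′ counts need no division by length. Reads shared between a member and near-identical copies can alter its CPM, and their part in differences between members was not tested. The liver libraries enter both comparisons of liver, so these are not independent of each other.

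Against spleen, liver iNKT cells had 41 members higher and 3 lower of 84. The background over all genes tested was 13% higher and 13.2% lower. The median fold of members was 0.42, beside 0.018 over all genes tested. In the small subunit 17 of 31 rose and 0 fell, in the large subunit 21 of 43 rose and 1 fell, and all 3 P stalk genes rose. Of the 7 tested further copies, 0 rose and 2 fell. At an unadjusted p below 0.05 and with DESeq2, 0 small subunit genes were lower and 0 further copies were higher as well. With 1 library left out, 17 (without spleen replicate 2), 21 (without liver replicate 1) or 24 (without spleen replicate 1) were called higher, and 0 were called lower without spleen replicate 2. In such fits the single library left is assumed to vary like the other groups.

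Among small subunit genes, Rps12 had 2664 and 2113 CPM in liver, 1212 and 1272 CPM in spleen and 1065 and 781 CPM in lymph node. The liver libraries lay above all others, and the fold over spleen was 0.97 ± 0.16 (SE, adjusted p = 6.9e-05). Rpsa, the small subunit protein also known as the laminin receptor, had 3245 and 2774 CPM in liver, 1714 and 1506 CPM in spleen and 1864 and 1394 CPM in lymph node. Both liver libraries were again the highest, and the fold over spleen was 0.93 ± 0.16 (SE, adjusted p = 6.6e-05). In the large subunit, Rpl12, which sits at the base of the stalk, had 3124 and 2415 CPM in liver, 1481 and 1363 CPM in spleen and 1264 and 931 CPM in lymph node. Its fold over spleen was 0.99 ± 0.16 (SE, adjusted p = 7.1e-05), the largest of any member. Rpl30 had 2191 and 1726 CPM in liver, 1079 and 985 CPM in spleen and 1057 and 828 CPM in lymph node. The liver libraries lay above all others, and its fold over spleen was 0.95 ± 0.15 (SE, adjusted p = 3.3e-05). Rpl27a was the member with the smallest rise called, at 0.42 ± 0.15 (SE, adjusted p = 0.044).

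Rpl35, a large subunit protein near the exit of the peptide tunnel, went against the rest. It had 3512 and 3534 CPM in liver, 5567 and 6541 CPM in spleen and 6013 and 6264 CPM in lymph node. Both liver libraries lay far below the other 4, and the fold was -0.76 ± 0.16 (SE, adjusted p = 0.00056) against spleen. Rpl22l1, the copy of Rpl22, had 990.4 and 1164 CPM in liver, 1514 and 1659.5 CPM in spleen and 1781 and 1989 CPM in lymph node. It was lowest in liver and highest in lymph node, with a fold against spleen of -0.53 ± 0.14 (SE, adjusted p = 0.0059). Rpl6l, a copy of Rpl6 that may share reads with it, had 618 and 697 CPM in liver, 931 and 824 CPM in spleen and 852 and 730.1 CPM in lymph node. Liver lay below spleen, with a fold of -0.39 ± 0.14 (SE, adjusted p = 0.035), and the lymph node libraries overlapped those of spleen. Since GENCODE annotates Rpl6l as a processed pseudogene, its UMIs need not stand for a protein-coding mRNA.

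Against lymph node, liver iNKT cells had 62 members higher and 2 lower of 84. The background was 17.8% higher and 20.0% lower over all genes tested. The median fold of members was 0.64, beside -0.0032 over all genes. In the small subunit 24 of 31 rose and 0 fell (0 also at an unadjusted p below 0.05 and with DESeq2), in the large subunit 33 of 43 rose and 1 fell, and all 3 P stalk genes rose. Of the 7 further copies 2 rose and 1 fell. Leaving out a library gave 47 to 68 members higher and 2 or 3 lower.

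Rps12 had the largest fold over lymph node, 1.46 ± 0.16 (SE, adjusted p = 4.1e-08), followed by Rpl12 at 1.42 ± 0.17 (SE, adjusted p = 9.3e-08). Rps10, a protein of the small subunit's beak, had 3089 and 2570.4 CPM in liver, 1713 and 1615 CPM in spleen and 1366 and 1122 CPM in lymph node, in 3 groups that did not overlap. Its fold of liver over lymph node was 1.28 ± 0.15 (SE, adjusted p = 3.8e-08). Rpl5, which binds the 5S ribosomal RNA, had 1711 and 1383 CPM in liver, 931 and 861 CPM in spleen and 779 and 601 CPM in lymph node. The organs again did not overlap, and the fold of liver over lymph node was 1.25 ± 0.15 (SE, adjusted p = 7.6e-08). The members lower in liver were Rpl35, with a fold of -0.71 ± 0.16 (SE, adjusted p = 0.00052), and Rpl22l1, with a fold of -0.71 ± 0.14 (SE, adjusted p = 0.00016). The smallest rises called were those of Rps27l, at 0.37 ± 0.12 (SE, adjusted p = 0.015), and Rpl4, at 0.38 ± 0.15 (SE, adjusted p = 0.045).

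Between spleen and lymph node, 8 members were higher in spleen and 0 were lower, beside a background of 7.41% higher and 10.5% lower. At an unadjusted p below 0.05, 18 were higher and 0 lower with edgeR, and DESeq2 called 12 higher and 0 lower. The members' share called was 9.52%, close to that of all genes tested. The median fold of members was 0.24, beside -0.0015 over all genes, and 80 of 84 folds were above 0. The count rested on single libraries: 45 members were higher without lymph node replicate 1, 1 without lymph node replicate 2, 2 without spleen replicate 1 and 1 without spleen replicate 2. The 2 lymph node libraries differed in the same sense, with 79 of 84 tested members higher in replicate 1, where 36.9% of all genes tested were. In liver 71 and in spleen 60 of 84 were higher in replicate 1, where 51.4% and 54.5% of all genes were.

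The 8 members were Rps27l, with a fold of 0.62, Rpl36al, with 0.52, and then Rps12, Rps10, Rpl36, Rpl27, Rpl5 and Rps21, with folds from 0.49 down to 0.43. Rps27l had 259.8 and 300.4 CPM in liver, 314 and 362 CPM in spleen and 225 and 237 CPM in lymph node. The spleen libraries were the highest and the lymph node libraries the lowest, and its adjusted p for spleen over lymph node was 0.00029 with edgeR. Rpl36al had 1016 and 1068 CPM in liver, 971 and 1044 CPM in spleen and 780.3 and 689 CPM in lymph node, with liver and spleen overlapping and lymph node below both. Rps21 had 2860.2 and 2354 CPM in liver, 1485 and 1557 CPM in spleen and 1304 and 1055 CPM in lymph node, with a step from liver to spleen to lymph node. Rpl27 had 3053 and 3039.6 CPM in liver, 2708 and 2685 CPM in spleen and 2199 and 1882 CPM in lymph node, and Rpl36 had 4340.1 and 4236 CPM in liver, 4348 and 4583 CPM in spleen and 3635 and 3054 CPM in lymph node. In both genes spleen was nearer to liver than to lymph node.

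**Figure D4:**
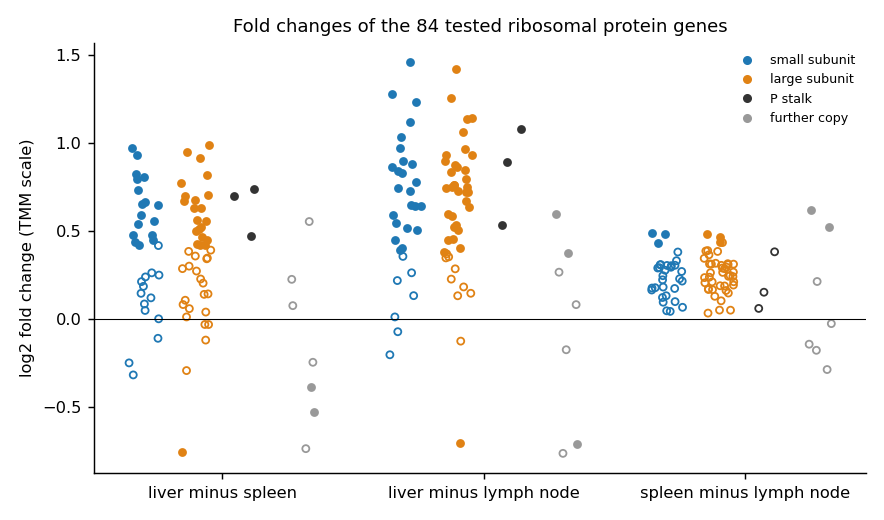
Log2 fold changes on the TMM scale (vertical axis) of the 84 tested ribosomal protein genes in the 3 comparisons of organs (horizontal axis), coloured by part of the ribosome. Filled points were called at an adjusted p below 0.05 with edgeR and open points were not. Most points of the 2 liver comparisons lie above 0, and the filled points below 0 are Rpl35, Rpl22l1 and, against spleen alone, Rpl6l.

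To see which members moved against the others, the same fit was run with the summed UMIs of the members as the library size. On this scale the median fold of all genes tested was -0.25 for liver against spleen, -0.51 for liver against lymph node and -0.24 for spleen against lymph node. Of 84 members, 22 were above the ribosomal protein total and 10 below it in liver against spleen, where 3.59% and 22.7% of all genes were. In liver against lymph node, 27 were above and 12 below, where 4.36% and 46.9% of all genes were. In spleen against lymph node, 0 were above and 1 was below, where 2.43% and 15.6% of all genes were. At an unadjusted p below 0.05 these counts were 1 and 2 with edgeR, and DESeq2 called 0 and 0. Without spleen replicate 2, liver replicate 1 or spleen replicate 1, the 32 departing from the total against spleen became 7, 10 and 12. The 39 departing against lymph node became 20 without liver replicate 1 and 19 without lymph node replicate 2.

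Within the total, the fold of liver over spleen was 0.71 ± 0.15 (SE, adjusted p = 4.8e-05) for Rpl12, 0.70 ± 0.15 (SE, adjusted p = 0.00011) for Rps12 and 0.68 ± 0.16 (SE, adjusted p = 0.00025) for Rpl30. Liver over lymph node gave 0.97 ± 0.15 (SE, adjusted p = 3.2e-09) for Rps12, 0.93 ± 0.15 (SE, adjusted p = 6.4e-09) for Rpl12 and 0.78 ± 0.15 (SE, adjusted p = 1.1e-06) for Rps10. At the other end stood Rpl35, with -1.02 ± 0.13 (SE, adjusted p = 5.8e-13) against spleen and -1.21 ± 0.13 (SE, adjusted p = 2.9e-19) against lymph node. Rpl22l1 had -0.80 ± 0.15 (SE, adjusted p = 5.4e-06) and -1.22 ± 0.15 (SE, adjusted p = 3.3e-14), and it was the member below the total in spleen against lymph node, with -0.42 ± 0.15 (SE, adjusted p = 0.031). Rpl6l was at -0.65 ± 0.17 (SE, adjusted p = 0.0011) against spleen. Rps19, a small subunit protein, had 5905 and 5911 CPM in liver, 6976 and 7339 CPM in spleen and 7374 and 7151 CPM in lymph node. Its CPM was lowest in liver, and its fold within the total was -0.71 ± 0.12 (SE, adjusted p = 1.1e-07) against lymph node. Rps28, named here because its start is printed, was at -0.57 ± 0.13 (SE, adjusted p = 4.5e-05).

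The members that lagged behind in liver were mostly the most abundant. The 4 highest by mean level were Rps27, Rpl41, Rps29 and Rpl37a. Rps27 had 11026 and 11249 CPM in liver, 12220.5 and 12279.7 CPM in spleen and 12319 and 11248 CPM in lymph node, with the lymph node libraries overlapping both other organs. Rpl41, the shortest ribosomal protein, had 7727 and 7914 CPM in liver, 9215 and 10308 CPM in spleen and 9339.6 and 8876 CPM in lymph node, with liver lowest. Rps29 had 8513 and 8357 CPM in liver, 7710.4 and 8105 CPM in spleen and 8239 and 7215 CPM in lymph node. Rpl37a had 8116 and 7739 CPM in liver, 8046 and 8463 CPM in spleen and 7351 and 6520.0 CPM in lymph node. On the scale of all genes, the folds of these 4 genes in liver ran from -0.29 to 0.12 against spleen and from -0.13 to 0.28 against lymph node, and none was called. Across the 77 genes of the 3 parts, the highest over the lowest CPM was 8.54 and 10.1 in liver libraries, 17.0 and 21.1 in those of spleen and 17.8 and 21.2 in those of lymph node. In each library the lowest was Rpl7a and the highest Rps27.

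To compare level and fold on separate libraries, the fold within the ribosomal protein total was set against the CPM in the organ outside the comparison. Spearman's rho across the 77 genes was -0.71 for liver against spleen with the level in lymph node, -0.70 for liver against lymph node with the level in spleen, and -0.10 for spleen against lymph node with the level in liver. These genes share libraries and depth and are not independent replicates. Both liver comparisons also share the liver libraries. In spleen against lymph node only 0 members were called above the total and 1 below. The level outside a liver comparison may thus still be tied to its fold. In cells with 1000 to 3000 UMIs the values were -0.70, -0.66 and -0.045, and with cells thinned to 1000 UMIs they were -0.72, -0.69 and -0.059. For liver against lymph node, coding length had a rho of 0.13 and transcript GC content -0.19 with the fold, both nearer to 0 than the level.

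**Figure D5:**
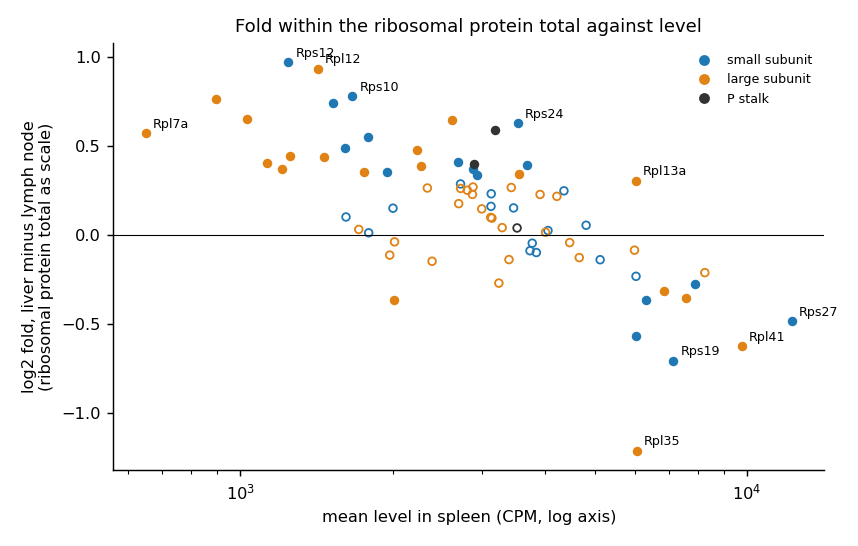
Log2 fold of liver over lymph node with the ribosomal protein total as the scale (vertical axis) against the mean CPM in spleen (horizontal log axis) for the 77 genes of the small subunit, large subunit and P stalk. Filled points were called at an adjusted p below 0.05. Genes at low level in spleen lie mostly above 0 and the most abundant mostly below 0, with Rpl35 lowest.

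The narrower range of liver was also described by UMIs per cell, with sets of genes ranked by mean CPM over the same 6 libraries. The choice of genes is thus not independent of the difference between organs, and these values are no separate support for it. The 10 most abundant of the 77 genes, among them Rps27, Rpl41, Rps29, Rpl37a and Rps19, held 22.8% and 23.6% of ribosomal protein UMIs in liver libraries, 28.0% and 28.5% in those of spleen and 28.7% and 30.1% in those of lymph node. The 10 least abundant, among them Rpl7a, Rpl5, Rpl22, Rpl30 and Rps12, held 6.31% and 5.73% in liver libraries, 4.35% and 4.24% in those of spleen and 4.25% and 3.94% in those of lymph node. In cells with 2000 to 3000 UMIs, the ratio of the first set to the second was 3.91 and 4.41 in liver libraries, 6.48 and 6.52 in those of spleen and 6.68 and 7.41 in those of lymph node. The groups of the organs did not overlap at this matched depth. Spleen and lymph node did overlap at 1000 to 1500 UMIs and at 4000 to 6000 UMIs. At 4000 to 6000 UMIs the ratio was 5.11 and 5.54 in spleen libraries and 5.40 and 5.93 in those of lymph node. From 2000 UMIs on, the ratio was lower in each deeper class of every library. In spleen it was 7.15 and 7.61 at 1000 to 1500 UMIs and 4.76 and 4.85 at 6000 or more, and in lymph node it was 7.60 and 8.31 and then 4.96 and 5.22. In liver the ratio was 3.89 and 4.51 at 1000 to 1500 UMIs and 3.1 and 3.34 at 6000 or more. The shallowest liver cells thus had a lower ratio than the deepest cells of the other organs. Cells with cycling markers made up 0.270% to 1.32% of the spleen and lymph node cells with 1000 to 1500 UMIs and 60% to 84.6% of those with 6000 or more, and the parts of depth and cycling in this pattern were not tested.

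Further copies were set beside their parent genes. Rpl22 itself had 1644 and 1516 CPM in liver, 1141 and 1119.5 CPM in spleen and 979 and 828 CPM in lymph node, so it moved against its copy Rpl22l1, with folds in liver of 0.51 ± 0.14 (SE, adjusted p = 0.0077) over spleen and 0.90 ± 0.14 (SE, adjusted p = 5.6e-06) over lymph node. Rps27l was far below its parent Rps27 in every library. Rps27rt, a retrogene of Rps27 on chromosome 9 whose reads may be split with its parent, had 1018 and 2009 CPM in liver, 2009 and 3129 CPM in spleen and 2583 and 2925 CPM in lymph node. Liver replicate 2 and spleen replicate 1 had the same value to the nearest whole CPM, and no comparison was called. Rpl7l1 had 80.4 and 85.9 CPM in liver, 71.5 and 73.5 CPM in spleen and 81.2 and 86.8 CPM in lymph node, without a call, while its parent Rpl7 rose in liver, by 0.67 ± 0.15 (SE, adjusted p = 0.0011) over spleen and 0.93 ± 0.15 (SE, adjusted p = 6.5e-06) over lymph node. Rpl39l had 7 to 27 UMIs per library, with no call. Rpl3, the parent of Rpl3l, had 3317 and 3206 CPM in liver, 3440.3 and 3033 CPM in spleen and 3136 and 2808 CPM in lymph node, with overlapping libraries of liver and spleen and no call.

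Of the 4 X-linked members, 3 rose in liver against both organs. Rps4x had 4585 and 4248 CPM in liver, 3008 and 2745 CPM in spleen and 2871 and 2304 CPM in lymph node, with folds of 0.65 ± 0.16 (SE, adjusted p = 0.0026) over spleen and 0.86 ± 0.16 (SE, adjusted p = 4.5e-05) over lymph node. Rpl10 had 3608 and 3382 CPM in liver, 2313 and 2146 CPM in spleen and 2135 and 1673 CPM in lymph node, with folds of 0.68 and 0.97. Rpl39, the parent of Rpl39l, had 5681 and 5429 CPM in liver, 3996 and 4431 CPM in spleen and 3692 and 3507 CPM in lymph node, with folds of 0.42 and 0.72. Rpl36a had 2481 and 2338 CPM in liver, 2060.4 and 1968 CPM in spleen and 2064 and 1686 CPM in lymph node, with 0.29 ± 0.15 (SE, adjusted p = 0.16) over spleen and 0.45 ± 0.15 (SE, adjusted p = 0.017) over lymph node. Spleen and lymph node did not differ by a call in any of the 4. Organ and sex cannot be told apart in this comparison, and a part of sex in these levels was not tested.

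Gnb2l1 and Fau, ribosome genes that the symbol rule leaves out, rose in liver. Gnb2l1, which encodes the small subunit protein Rack1, had 1298 and 1012 CPM in liver, 599 and 508 CPM in spleen and 543 and 458 CPM in lymph node. Its folds were 1.09 ± 0.15 (SE, adjusted p = 1.9e-06) over spleen and 1.30 ± 0.15 (SE, adjusted p = 1.6e-08) over lymph node. Fau, whose product is cut into a ubiquitin-like protein and a small subunit protein, had 5515 and 4925 CPM in liver, 3852 and 3606 CPM in spleen and 3407 and 2717 CPM in lymph node. Its folds were 0.51 ± 0.16 (SE, adjusted p = 0.017) and 0.86 ± 0.16 (SE, adjusted p = 6.2e-05).

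Of 56 translation factors tested, 11 rose (19.6%, beside 13% of all genes) and 8 fell (14.3%, beside 13.2%) in liver against spleen. Against lymph node 18 rose (32.1%, beside 17.8%) and 6 fell (10.7%, beside 20.0%). In spleen against lymph node 4 were higher (7.14%, beside 7.41%) and 0 lower, beside 10.5% (3 lower at an unadjusted p below 0.05, and 1 lower with DESeq2). The median folds were 0.049, 0.071 and 0.087. Eef1a1, which brings aminoacyl-tRNA to the ribosome and is itself a TOP gene, had 5698 and 4826 CPM in liver, 2503 and 1882 CPM in spleen and 2264 and 1774 CPM in lymph node, with a fold over spleen of 1.29 ± 0.17 (SE, adjusted p = 1.7e-06) and over lymph node of 1.47 ± 0.17 (SE, adjusted p = 3.2e-08). Eef2, the translocase, rose by 1.27 ± 0.15 (SE, adjusted p = 1.4e-07) over spleen. Tpt1, another TOP gene, rose by 1.24 ± 0.15 (SE, adjusted p = 5.1e-08) over lymph node. Eif3j2 fell by 1.22 on the log2 scale against spleen and by 0.70 against lymph node. Eif6, which keeps the large subunit from joining too early, fell by 0.60 against spleen, and the cap-binding factor Eif4e fell by 0.59 against lymph node. Eif1ad, Eif3c, Eif3m and Eif4e2 were higher in spleen than lymph node, with folds of 0.68, 0.42, 0.37 and 0.34.

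Ribosome biogenesis factors, which make and assemble the subunits in the nucleolus, did not share the rise against spleen. Of 67 tested, 6 were higher and 5 lower in liver than spleen, a share below the background in both directions, with a median fold of 0.017. Against lymph node 15 were higher (22.4%, beside 17.8% of all genes) and 3 lower (4.48%, beside 20.0%) in liver, with a median of 0.13. DESeq2 called 7 of 67 higher and 2 lower there, beside 1163 and 1477 of all 10314 genes. The excess of higher genes over all genes was thus not seen with DESeq2. In spleen 10 were higher than in lymph node (14.9%, beside 7.41%) and 0 lower, beside 10.5%, with a median of 0.11. At an unadjusted p below 0.05, 4 were lower in spleen, and DESeq2 called 0 lower. Heatr1, of the small subunit processome, had 5.8 and 6.55 CPM in liver, 7.74 and 5.39 CPM in spleen and 3.32 and 3.36 CPM in lymph node, with folds over lymph node of 0.97 ± 0.32 (SE, adjusted p = 0.014) in liver and 1.04 ± 0.34 (SE, adjusted p = 0.026) in spleen. Polr1a, the largest subunit of RNA polymerase I, had a fold of 0.74 ± 0.23 (SE, adjusted p = 0.012) in liver over lymph node. Mybbp1a had 0.89 ± 0.18 (SE, adjusted p = 0.00051) in spleen over lymph node, and the smallest called rises there were those of Ddx18 (0.38) and Npm3 (0.38). Against spleen, Tsr2, a chaperone of Rps26, and the processome gene Utp6 rose in liver by 0.69 and 0.55, and Nop10 and Rrs1 fell by 0.63 and 0.50. Utp18 and Las1l fell by 0.57 and 0.50 against lymph node.

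Among 22 genes of growth control, 3 rose and 1 fell in liver against spleen, 5 rose and 5 fell against lymph node, and 2 were higher and 3 lower in spleen than lymph node. The shares higher were 13.6%, 22.7% and 9.09%, close to the 13%, 17.8% and 7.41% of all genes, and the shares lower were 4.55%, 22.7% and 13.6%, beside 13.2%, 20.0% and 10.5%. DESeq2 called 0 higher and 0 lower in liver against spleen, so the calls against spleen named below rest on edgeR alone. Against lymph node DESeq2 called 3 higher and 5 lower in liver, and 2 higher and 3 lower in spleen. Larp1, which binds TOP mRNAs, had 44.3 and 43.6 CPM in liver, 33.3 and 33.3 CPM in spleen and 20.1 and 22.3 CPM in lymph node, with a step from liver to spleen to lymph node. Its folds were 0.43 ± 0.14 (SE, adjusted p = 0.021) and 1.15 ± 0.15 (SE, adjusted p = 1.2e-07) in liver over spleen and lymph node. The inhibitor of cap-dependent translation Eif4ebp1 had 15.4 and 17.5 CPM in liver, 12.7 and 15.2 CPM in spleen and 36.5 and 36.1 CPM in lymph node, high in lymph node, with a fold of -1.32 ± 0.18 (SE, adjusted p = 8.3e-07) in spleen against lymph node. Sesn1, an inhibitor of mTORC1, was higher in spleen than lymph node by 0.84 ± 0.13 (SE, adjusted p = 7.6e-06). Rptor, the defining subunit of mTORC1, and Eif4ebp2 rose in liver against spleen by 0.65 and 0.46, while Rheb, its activator, fell by 0.41. Tsc2, an inhibitor of Rheb, had 104 and 58 UMIs in liver and 21 and 15 in lymph node, with a fold of 1.24 ± 0.30 (SE, adjusted p = 0.0016). Mycn had 2 and 3 UMIs in liver libraries, 2 and 2 in those of spleen and 41 and 45 in those of lymph node, and Deptor, another inhibitor, had 11 and 2 UMIs in liver and 18 and 13 in lymph node. Both were called lower in liver than lymph node, and their liver counts are too few for a fold.

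The 77 mitochondrial ribosomal protein genes, which serve the separate ribosome of mitochondria, did not share the rise in liver. In liver 2 were higher (2.60%, beside 13% of all genes) and 27 lower (35.1%, beside 13.2%) than in spleen, with a median fold of -0.18. Against lymph node 7 were higher (9.09%, beside 17.8%) and 11 lower (14.3%, beside 20.0%), with a median of -0.062. Both shares against lymph node were below those of all genes. Spleen had 9 higher than lymph node (11.7%, beside 7.41%) and 0 lower, beside 10.5%, with a median of 0.20. At an unadjusted p below 0.05 and with DESeq2, 0 were lower as well. They held 0.562% and 0.598% of UMIs in liver libraries, 0.683% and 0.709% in those of spleen and 0.630% and 0.650% in those of lymph node. As a share of all UMIs, these genes were thus lowest in liver, where the cytosolic genes were highest. Both are shares of the same total, so a larger cytosolic share by itself lowers every other share. The difference between both sets of genes was not tested.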

How the data were processed

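Libraries were made with the 10x Genomics Chromium Single Cell 3′ kit (v2) from sorted cells. The labels name the molecule nuclear RNA, while the methods describe whole cells. Per the labels, the authors aligned reads to mm10 and counted UMIs with Cell Ranger 3.1.0, and the deposited counts are whole UMIs per gene and barcode, with gene and barcode names (other values) in files of their own. Seurat was also used by the authors, and nothing from it was used here. The annotation version behind the counts is not given in the sources used here.

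Barcodes with fewer than 300 or more than 4000 genes, over 15% mitochondrial UMIs, or both Xist and Y-linked RNA were left out, following the study's stated limits. This left out 55 of 16587 and kept more cells than the study states. The last rule marked 0 cells, since no library held both kinds of RNA, so doublets were removed only through the gene limit of 4000. UMIs of the kept cells were summed per library and tested with edgeR 4.0.16 (quasi-likelihood, filterByExpr with a minimum count of 10, TMM, all 6 libraries in 1 fit) in R 4.3.3, with DESeq2 1.42.0 as an alternative. The fit scaled to the ribosomal protein total used the members' summed UMIs as library size. Summed UMIs were 4758138 to 10870838 per library, so counting error is small beside the spread of libraries, and the libraries are the replicates (n = 2 per organ). The study calls them biological repeats, and nothing ties them to numbered animals. The p-values rest on the spread between libraries, pooled over the organs and moderated over all genes tested. They do not measure the spread of a single gene between the 2 libraries of an organ. Each SE was worked back from the fold and its test statistic and shares this limit. Cells were thinned with seed 1, and 1075 of 16532 had fewer than 1000 UMIs and were left out there. The scripts were tested on simulated counts. Python 3.11.15, numpy 2.4.6, pandas 2.3.3 and scipy 1.17.1 were used. Gene models came from GENCODE M21 and promoters from RefSeq, both on GRCm38, the build known as mm10, and 27645 of 27998 gene IDs matched GENCODE.

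Members, gene lists and marker lists were chosen with earlier results of these data known, and none is independent support. The genes named were, among called members, the 4 highest and 4 lowest folds in each comparison and the 3 highest and 3 lowest within the ribosomal protein total, the highest by mean CPM, the detected copies with their parents, 4 X-linked members, ribosome genes outside the rule, and the 2 highest and 2 lowest called genes of each other list. Any other member is named as chosen after its values were seen or as part of a set. Some genes that these rules select are not reported here. Among others, no promoter entry was used for Rpl17, Rpl21, Rpl23a, Rpl29, Rpl3, Rpl30, Rpl32, Rpl36, Rpl6l, Rpl7, Rpl8, Rplp1, Rps14, Rps20, Rps27a and Rps29.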

Additional observations from a re-analysis of the deposited data

Results flagged for a closer look

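In cells with RTE markers the ribosomal protein share minus that of the other cells averaged -0.362 ± 0.106 percentage points for liver, 1.17 ± 0.636 for spleen and 1.90 ± 1.25 for lymph node (± SD over 2 libraries). With at least 2 UMIs of the list as the limit, both libraries were below 0 in liver and above 0 in each of the other organs, and the gap between the organs' means was -1.537 percentage points for liver minus spleen and -2.258 for liver minus lymph node. The difference was not tested. It rested in part on cells at the limit of 2 UMIs, which were 67.7% of the called cells. With at least 3 UMIs liver replicate 1 turned to 0.0636 percentage points from -0.437, liver replicate 2 was at -0.891, the spleen libraries were at 0.0162 and 2.18 and the lymph node libraries at 4.89 and 3.06, so the 2 liver libraries then differed in direction. Liver libraries had 205 called cells, spleen libraries 406 and lymph node libraries 258, and their median UMIs before thinning were 3484 and 2851.5 in liver libraries, 2141 and 1937 in those of spleen and 1879.5 and 1441 in those of lymph node.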

How the results depend on the processing

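Leaving out each library in turn gave 17 to 47 members higher and 0 to 4 lower in liver than spleen, 47 to 68 higher and 2 to 3 lower in liver than lymph node, and 1 to 45 higher and 0 lower in spleen than lymph node. Members departing from the ribosomal protein total numbered 7 to 32 for liver against spleen, 19 to 38 for liver against lymph node and 0 to 2 for spleen against lymph node. The share ran from 31.6% to 34.0% in liver, 27.4% to 28.0% in spleen and 22.9% to 26.7% in lymph node. Members higher in spleen than lymph node were 5 without cells holding markers of other cell types, a list that 29.2% to 47.1% of cells held. By summed CPM that list was mostly Cst3 in spleen and lymph node. In liver it was mostly erythroid genes, with 362 and 583 CPM beside 125 and 145 CPM of Cst3. With TMM among members, 21 departed from the total in liver against spleen. In spleen against lymph node 0 departed with DESeq2 or with all genes kept.

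Replicate numbers are not said to pair libraries, and their deviations correlated by 0.0907, 0.0860 and 0.0677, under the 0.1 set for pairing. With the replicate number as a block, 16 members were higher in spleen than lymph node and 7 departed from the total there. The spleen share was 26.8% as the median over cells, 28.3% with ribosome genes outside the symbol rule added, and 29.9% without mitochondrial genes, Malat1, Gm42418 and AY036118 in the total, and the liver share was then 34.6%. With 3 or more UMIs as the cycling limit, the difference was -5.64 percentage points. The cause of these shifts was not tested. Over 141 folds called for named genes, 1273 of 1369 values kept their call under alternatives other than leaving out a library, 96 lost it and 0 reversed. With a library left out, 650 of 846 kept it, 196 lost it and 0 reversed.

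With 2 libraries per organ, a difference such as that between spleen and lymph node can rest on 1 library.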
